A study of Mus musculus with 4 samples.

Results

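The common gamma chain cytokine receptors were examined in cultured mouse Th17 cells through 7 genes: Il2ra, Il2rb, Il2rg, Il7r, Il4ra, Il21r and Il15ra. The genes were found by their symbols in the deposited expression table, and the choice of the family was made with earlier results of these data known. The table held 17921 genes, and all 7 were found in it once and passed the filter on low counts, which left 12680 genes to test.

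The study compared Th17 cells labelled PRAK knockout (KO) with wild-type (WT) cells. PRAK, a kinase that acts downstream of p38 MAP kinases, is the product of Mapkapk5. Naive CD4+ T cells were enriched from 2 KO and 2 WT mice and polarised towards Th17 cells in culture for 72 h, and RNA of all cells in the culture was sequenced on day 3. Each library came from 1 mouse and is called here by its genotype and mouse number (WT 1, WT 2, KO 1, KO 2). No source used here gives the part of the gene that was deleted, the strain, age or sex of the mice, or the cytokines of the culture medium.

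The common gamma chain, encoded by Il2rg, is the signalling subunit shared by the receptors for interleukins 2, 4, 7, 9, 15 and 21. Each receptor adds its own chain or chains. The interleukin 2 receptor combines the gamma chain with the beta chain (Il2rb) and, in its high-affinity form, the alpha chain (Il2ra, CD25), and interleukin 15 uses the same beta and gamma chains with its own alpha chain (Il15ra). The beta, gamma, interleukin 4, 7 and 21 receptor chains carry the cytoplasmic parts that bind JAK kinases, JAK3 on the gamma chain and JAK1 on most partner chains. Interleukins 2, 7 and 15 act mainly through STAT5, interleukin 4 through STAT6 and interleukin 21 through STAT3. In helper T cells, interleukin 2 acting through STAT5 is known to restrain Th17 differentiation, interleukin 21 is a product of Th17 cells that acts back on them, and interleukin 7 maintains naive and memory cells.

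The 7 genes lie on 4 chromosomes, and 4 of them form close pairs (RefSeq, GRCm38.p6). Il2ra (chr2:11642792-11693194) and Il15ra (chr2:11705172-11733985), the alpha chains for interleukins 2 and 15, are separated by 11977 bases with 1 non-coding gene between them. Il4ra (chr7:125552271-125579474) and Il21r (chr7:125603252-125634397) are separated by 23.8 kb with 0 genes between them. Il7r (chr15:9506159-9529941) and Il2rb (chr15:78479256-78511621) share a chromosome but are 68949.3 kb apart, and Il2rg lies on the X chromosome (chrX:101264385-101268255). In the GENCODE annotation of the same assembly, 728 exon bases of Il2rg are shared with Gm20489 on the same strand, and 571 exon bases of Il4ra are shared with the antisense gene Gm44876. Those 2 genes were not analysed here, so reads shared with them cannot be told apart from reads of Il2rg and Il4ra.

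RefSeq promoter windows, from 250 bases before to 50 bases after the start of transcription, were matched for 6 of the 7 genes. A search of both strands for ETS (AGGAAGT or CGGAAG), STAT (TTCNNNGAA), octamer (ATGCAAAT), FOXO (GTAAACA), RUNX (TGTGGT) and NFAT (GGAAAA) letters was chosen after the sequences had been read. Short stretches around an ETS match in Il7r, Il2ra and Il2rg and around the octamer of Il4ra are shown because Il7r was the member called in KO cells, Il2rg lay higher there, Il4ra lay lower, and Il2ra shares the match of Il7r. They are written 5′ to 3′ on the strand of the gene, with the matched letters in capitals.

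Il7r, chr15:9529910-9529934, minus strand: tttgctcagACTTCCTgtttctggc
Il2ra, chr2:11642748-11642772, plus strand: aaaaaaaacACTTCCTatatgagat
Il2rg, chrX:101268257-101268280, minus strand: tctttccacCGGAAGctacgacaa
Il4ra, chr7:125552123-125552148, plus strand: gggtggggcATGCAAATaagccagcg

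Il7r and Il2ra held the same 7 letters of an ETS match, AGGAAGT on the opposite strand, at positions -49 to -43 and -35 to -29 from the start on which each window is built. The Il7r match lies inside the RefSeq span of its gene, though in no GENCODE exon, whereas the Il2ra and Il2rg matches lie before their genes. The octamer of Il4ra lies before the RefSeq gene but inside a GENCODE exon of Il4ra. Il2rg held the other ETS form at positions -16 to -11. Among 32851 promoter windows of the table, AGGAAGT was found in 9.35%, CGGAAG in 16.9% and the octamer in 1.74%. The window of Il7r also held a STAT match at positions -142 to -134, letters found in 8.3% of windows, an NFAT match at positions -121 to -116, letters found in 23.4%, and a RUNX match at positions 3 to 8, letters found in 16.8%. The STAT and NFAT matches are in capitals in the stretch before the RefSeq span of Il7r, the member that was called. Among the other windows, Il2rg held a RUNX match (-227 to -222), Il15ra an ETS match CGGAAG (-103 to -98) and an NFAT match (-245 to -240), and Il21r a FOXO match (-38 to -32, letters found in 3.65% of windows) that overlaps a RUNX match (-33 to -28). The Il15ra ETS match and both Il21r matches lie inside the RefSeq spans of their genes. A match is a description of the letters and not a binding site.

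Il7r upstream, chr15:9529942-9530040, minus strand: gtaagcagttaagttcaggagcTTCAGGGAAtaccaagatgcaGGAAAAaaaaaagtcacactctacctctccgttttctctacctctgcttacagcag

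Total expected counts per library lay between 19418012 and 20125124. The KO libraries differed from each other more than the WT libraries did, with a chi-square per gene of 59.1 against 7.22, so a gene's KO mean often rests on separate values. Mapkapk5 gave 35.6 and 38.4 CPM (counts per 1000000, with TMM scaling) in the WT libraries against 20.04 and 21.6 in the KO libraries, lower in both libraries labelled KO (log2 fold change -0.83, adjusted p = 0.0194, edgeR quasi-likelihood test). The KO libraries kept 0.562 of the WT level, and the deleted part of the gene is not known here, so the value checks the labels only in part. Of 12680 genes tested, 13.4% were called at an adjusted p under 0.05, 5.14% higher and 8.23% lower in KO, with a median log2 fold change of 0.02. With scaling by library size alone, 51.5% of the called genes were higher in place of 38.5%, and the median of all genes moved to 0.12. No member of the family changed direction under any scaling tried. For 63% of tested genes, KO and WT values were separate.

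Among the receptor genes, Il7r fell in KO cells to 0.554 of its WT level, and it was the single member of 7 that passed the test, beside 13.4% of all genes. The other members gave values on both sides. Il4ra and Il2rb lay lower and Il2rg higher in both KO libraries. Their adjusted p-values of 0.0561, 0.0756 and 0.110 (edgeR) were all above the threshold of 0.05. Il2ra and Il15ra differed mainly in KO 2, and Il21r overlapped between the genotypes. The groups did not overlap for 6 of the 7 genes (4 lower and 2 higher in KO), beside 63% of all genes, and 4 of 7 had an unadjusted p under 0.05 in the edgeR quasi-likelihood test, beside 31.7% of all genes.

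**Figure D1:**
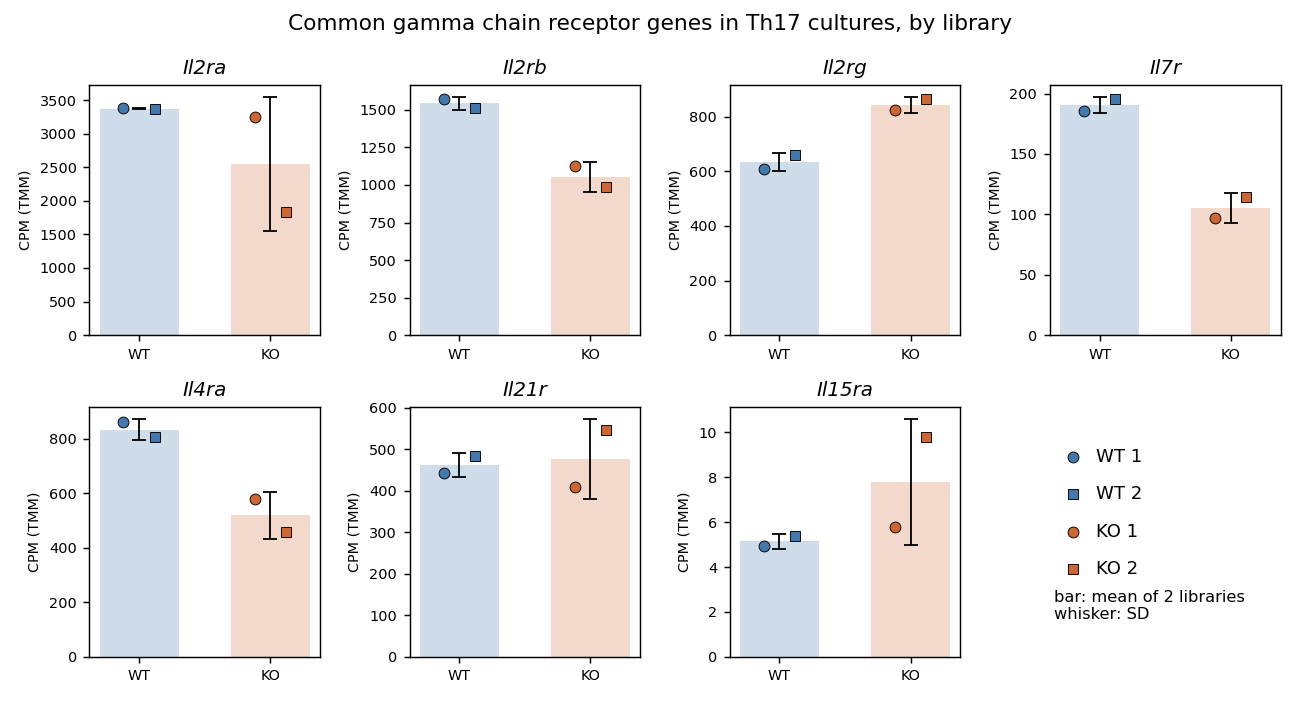
CPM (scaled with TMM factors) of the 7 receptor genes in WT and KO Th17 cultures, 1 panel per gene with its own vertical axis from 0; points are libraries, bars are means of 2 libraries and whiskers are SD. The KO points of Il7r, Il4ra and Il2rb lie below both WT points, those of Il2rg lie above, and for Il2ra KO 1 (3256 CPM) stands near WT while KO 2 (1839 CPM) stands apart.

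Il2rg, the shared signalling chain, gave 610.0 CPM (WT 1), 659 (WT 2), 823 (KO 1) and 865 (KO 2). Both KO libraries were above both WT libraries, and each genotype's libraries were close together (634 ± 34.5 in WT and 844 ± 29.2 in KO, SD, n = 2 each). Its log2 fold change of 0.41 (SE 0.14, 95% interval 0.07 to 0.76) did not pass over all genes (adjusted p = 0.110, edgeR quasi-likelihood test). The DESeq2 Wald test, run as an alternative, called it (adjusted p = 0.0235).

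Il2rb, the beta chain that interleukins 2 and 15 share, went the other way. Its values were 1575 CPM (WT 1), 1514 (WT 2), 1126 (KO 1) and 984 (KO 2), so that every KO value was below every WT value. The mean was 1544 ± 42.8 CPM in WT and 1055 ± 100.1 in KO (SD, n = 2 each). A log2 fold change of -0.55 (SE 0.16, 95% interval -0.94 to -0.16) did not pass the edgeR test (adjusted p = 0.0756), while DESeq2 called it (adjusted p = 0.00229).

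Il2ra, the alpha chain that raises the receptor's affinity for interleukin 2, was the most abundant member in WT cells. It reached 3379 CPM (WT 1), 3372 (WT 2), 3256 (KO 1) and 1839 (KO 2). The WT libraries were nearly equal and KO 1 lay just below them, whereas KO 2 was far lower. Over all 4 libraries the log2 fold change was -0.41 (SE 0.29, 95% interval -1.14 to 0.32, adjusted p = 0.393 with edgeR). It was -0.88 without KO 1 and -0.06 without KO 2, so the value was set by which KO mouse was kept.

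Il15ra, which presents interleukin 15 to cells carrying the beta and gamma chains, was at the bottom of the range of the family. It had 96.1 (WT 1), 103 (WT 2), 120 (KO 1) and 197 (KO 2) expected counts, or 4.92, 5.38, 5.81 and 9.79 CPM. KO 1 was close to WT and KO 2 was well above it. This gave a log2 fold change of 0.60 (SE 0.32, 95% interval -0.19 to 1.38, adjusted p = 0.260 with edgeR), and it was 0.17 without KO 2. Without KO 1 it was 0.92.

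Il7r, the interleukin 7 receptor chain that marks naive and memory T cells and is switched off on activation, fell. Its values were 186 CPM (WT 1), 195 (WT 2), 96.7 (KO 1) and 114 (KO 2). The WT libraries and the KO libraries formed separate, narrow groups (190.4 ± 6.85 and 105 ± 12.4 CPM, SD, n = 2 each). The change amounted to -0.85 on the log2 scale (SE 0.13, 95% interval -1.18 to -0.53, adjusted p = 0.0168, edgeR quasi-likelihood test), which is 0.554 of the WT level with an interval from 0.443 to 0.693. The change had this direction and a similar size whichever library was left out, from -0.74 to -0.98, but the call was lost without WT 1 (adjusted p = 0.0530, edgeR) and without WT 2 (adjusted p = 0.0810, edgeR). In RNA of whole cultures, fewer cells of a type and less RNA per cell cannot be told apart.

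Il4ra, the ligand-binding chain for interleukin 4 and, with another partner, for interleukin 13, gave 862 CPM (WT 1), 805 (WT 2), 581 (KO 1) and 457 (KO 2). Both KO libraries lay below both WT libraries (834 ± 40.1 CPM in WT and 519 ± 87.6 in KO, SD, n = 2 each). Its log2 fold change of -0.68 (SE 0.17, 95% interval -1.11 to -0.26) narrowly missed the threshold (adjusted p = 0.0561, edgeR). With no filter on low counts the adjusted p was 0.0496 (edgeR), and with DESeq2 it was 0.00115.

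Il21r, the chain that lets Th17 cells respond to their own interleukin 21, showed no separation of the genotypes. It gave 442 CPM (WT 1), 483 (WT 2), 409 (KO 1) and 546 (KO 2), with the lowest and the highest value both in KO. The log2 fold change was 0.05 (SE 0.18, 95% interval -0.40 to 0.50, adjusted p = 0.887, edgeR), so changes of either sign lie inside the interval. Its sign turned without WT 1 (-0.02) and without KO 2 (-0.18). Il4ra and Il21r, 23.8 kb apart, thus gave different values, and so did the pair of alpha chains Il2ra and Il15ra in KO 2. These differences between genes were not tested.

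**Figure D2:**
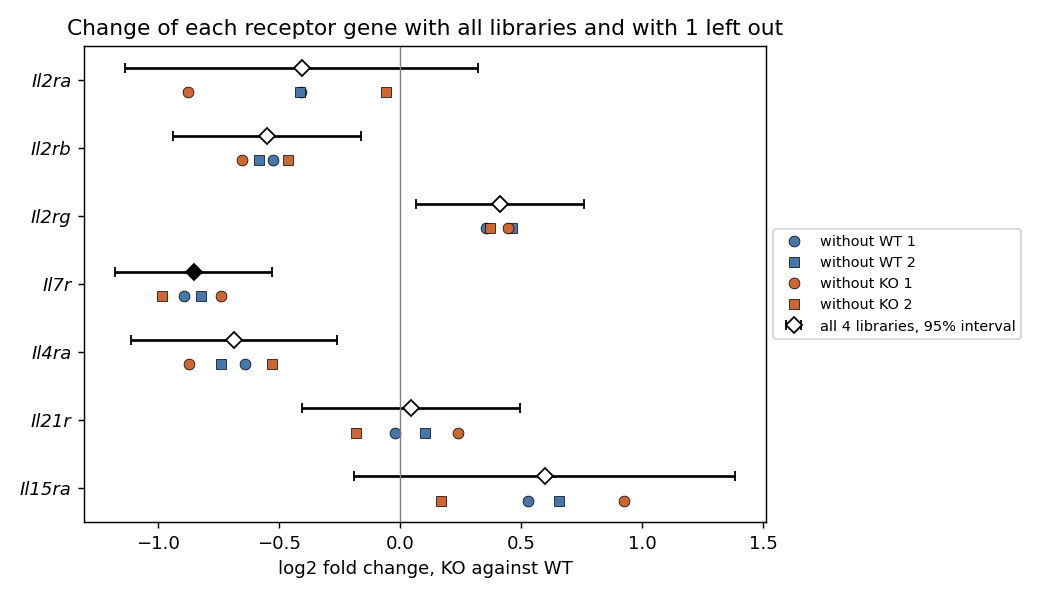
Log2 fold change of each receptor gene, KO against WT, from the edgeR quasi-likelihood fit with all 4 libraries (diamonds with 95% intervals, filled where the adjusted p was under 0.05) and with 1 library left out (circles and squares). The points of Il7r stay between -0.98 and -0.74, whereas those of Il2ra run from -0.88 without KO 1 to -0.06 without KO 2.

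Compared per length, as TPM (transcripts per 1000000), the interleukin 2 receptor chains led the family. In WT cells the order was Il2ra (1399 TPM in WT 1 and 1352 in WT 2), Il2rb (874 and 793), Il2rg (686 and 720), Il4ra (422 and 381), Il21r (313 and 331), Il7r (106 and 108) and Il15ra (5.76 in both). Every neighbour in this order was separate from the next in both WT libraries. In KO cells the order was Il2ra (1470 TPM in KO 1 and 777 in KO 2), Il2rg (1008 and 991), Il2rb (658 and 553), Il21r (316 and 394), Il4ra (300.0 and 226), Il7r (60.4 and 66.7) and Il15ra (7.82 and 12.7). Il2ra and Il2rg overlapped there, and the other neighbours were separate. Il2rg had moved above Il2rb, and Il21r above Il4ra, in both KO libraries.

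**Figure D3:**
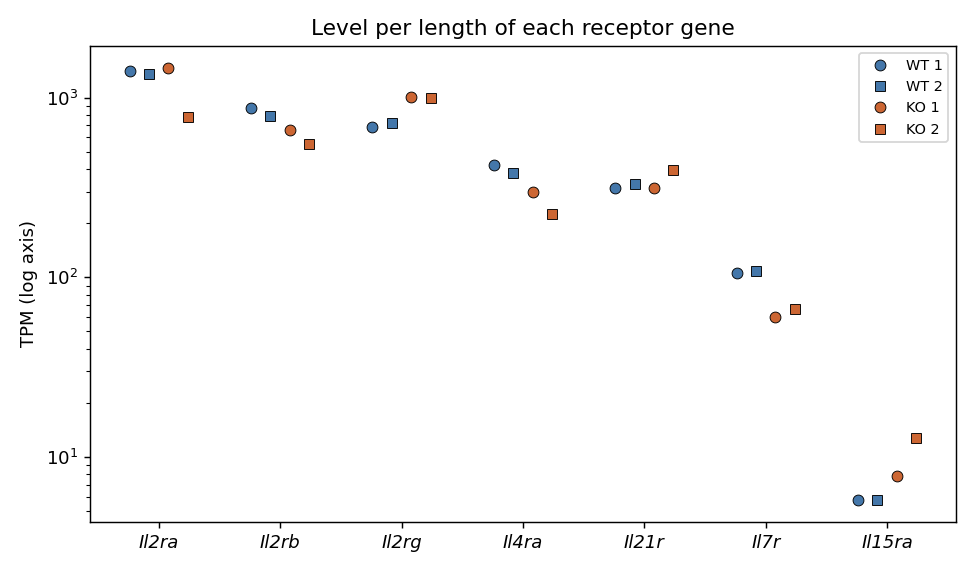
Level per length (TPM, log axis) of each receptor gene in the 4 libraries, ordered by the WT mean. Levels run from 1399 TPM for Il2ra to 5.76 for Il15ra in WT 1, and the KO points of Il2rg (1008 and 991 TPM) stand above those of Il2rb (658 and 553), the reverse of WT.

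The partner chains were therefore set against the shared gamma chain in each library, as ratios of TPM. Il2rb over Il2rg was 1.27 (WT 1), 1.10 (WT 2), 0.653 (KO 1) and 0.558 (KO 2), above 1 in both WT libraries and below 1 in both KO libraries. Il7r over Il2rg was 0.155, 0.150, 0.0599 and 0.0673 in the same order of libraries, the lowest KO-to-WT proportion of the ratios computed (0.416). Il4ra over Il2rg was 0.615, 0.530, 0.298 and 0.228, a proportion of 0.457. In each of these 3 ratios the KO libraries had both a lower numerator and a higher Il2rg.

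For the other chains the ratios were less even. Il2ra over Il2rg was 2.04 and 1.88 in WT 1 and WT 2 and 1.46 and 0.784 in KO 1 and KO 2. Il21r over Il2rg was 0.456, 0.461, 0.313 and 0.398. Il15ra over Il2rg overlapped between genotypes, with 0.00839, 0.00800, 0.00776 and 0.0128. Il2ra over Il2rb overlapped too, with 1.60, 1.71, 2.23 and 1.40, so the alpha and beta chains of the interleukin 2 receptor did not separate the genotypes by their proportion. Of the 7 ratios computed, 5 did not overlap between genotypes. Each had an exact two-sided permutation p of 0.333, which is the smallest that 2 libraries against 2 can give. A p under 0.05 was thus out of reach, and the ratios are a description of these libraries. All 5 were taken over Il2rg, which itself did not overlap between genotypes, so they are not independent of each other. Il21r over Il2rg is among them, although Il21r alone overlapped. The share of separate ratios among other pairs of genes was not computed.

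**Figure D4:**
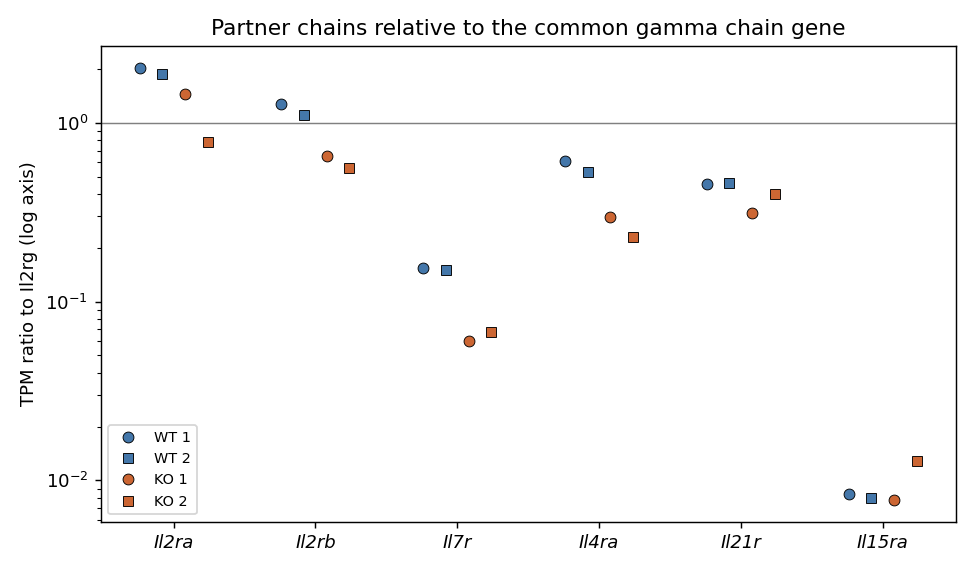
TPM of each partner chain divided by TPM of Il2rg in the same library (log axis, line at 1); circles are mouse 1 and squares mouse 2 of each genotype. The KO points lie below the WT points for Il2ra, Il2rb, Il7r, Il4ra and Il21r, and only Il2rb passes from above 1 (1.27 and 1.10) to below 1 (0.653 and 0.558) in both mice.

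Among the ligands, Il2 and Il13 rose. Of 8 listed ligand genes 5 had enough counts to test, of which these 2 passed, beside 5.14% of all genes higher. The median log2 fold change of the 5 was 1.42, which is the value of Il13 itself, beside 0.02 over all genes. Il2, the gene of interleukin 2, gave 19.1 CPM (WT 1), 12.4 (WT 2), 105 (KO 1) and 276 (KO 2). Both KO libraries were several times above both WT libraries, and they differed from each other as well. It rose by 3.59 on the log2 scale (SE 0.52, adjusted p = 0.0146, edgeR), with the call lost without WT 1 (adjusted p = 0.261) and without WT 2 (adjusted p = 0.361, both edgeR). The size ran from 2.73 to 4.12 with a library left out. KO 2, the library with the highest Il2, was also the one with the lowest Il2ra. In KO 1, where Il2 was also above WT, Il2ra stood at 3256 CPM, near the WT values of 3379 and 3372. A link between these genes was not tested.

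Il13, whose product signals through Il4ra but not through the gamma chain, rose from 78 and 80 expected counts in WT to 179 and 268 in KO (1.42 on the log2 scale, adjusted p = 0.0331, edgeR). That call too was lost without WT 1 (adjusted p = 0.123) and without WT 2 (adjusted p = 0.112, both edgeR). Il21, the autocrine cytokine of Th17 cells, was the most abundant ligand in WT cells at 300.2 and 268 CPM, and stood at 290.0 and 225 in KO (-0.14, adjusted p = 0.600, edgeR). Il9 came from a single library: it had 22 (WT 1), 10 (WT 2), 752 (KO 1) and 19 (KO 2) expected counts, and it did not pass (4.49, adjusted p = 0.127, edgeR). Il4 was near the limit of detection with 10 to 30 counts per library (0.56, adjusted p = 0.566, edgeR). Il15 had 3 to 10 counts per library and Tslp at most 1. Il7, a product of stromal cells, had a count of 0 in all 4 libraries, which allows up to 3 counts or 0.145 to 0.157 CPM per library, for counting error only.

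Of the related receptor genes listed, 3 were tested and 1 fell, beside 8.23% of all genes. Il13ra1, which pairs with Il4ra to form the other interleukin 4 and interleukin 13 receptor, fell from 3.28 and 5.02 CPM in WT 1 and WT 2 to 1.02 and 0.696 in KO 1 and KO 2 (log2 fold change -2.27, SE 0.41, adjusted p = 0.0259, edgeR). That is 14 to 96 expected counts per library, and the call was lost without WT 2 (adjusted p = 0.159, edgeR). Crlf2, the chain that pairs with Il7r for thymic stromal lymphopoietin, stood at 55.8, 58.6, 47.3 and 73.8 CPM in WT 1, WT 2, KO 1 and KO 2 (0.08, adjusted p = 0.832, edgeR). Unlike Il7r its values overlapped between genotypes. Il9r, the interleukin 9 receptor chain, stood at 1.59 to 1.78 CPM in WT and 2.24 to 2.47 in KO (0.48, adjusted p = 0.360, edgeR).

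Of 9 JAK and STAT genes tested, 3 fell and the others did not pass, beside 8.23% of all genes lower, with a median log2 fold change of -0.19 beside 0.02 over all genes. Jak3, the kinase bound to the gamma chain, gave 1047 CPM (WT 1), 1124 (WT 2), 473 (KO 1) and 613 (KO 2), so its direction was opposite to that of Il2rg. It fell to 0.500 of the WT level (SE 0.18 on the log2 scale, adjusted p = 0.0256, edgeR). Stat5b, one of the STAT5 genes downstream of interleukins 2, 7 and 15, fell from 491 and 473 CPM to 256 and 301 (-0.79, SE 0.14, adjusted p = 0.0250, edgeR), whereas its neighbour in function Stat5a overlapped between the genotypes (-0.19, adjusted p = 0.490, edgeR). The difference between these STAT5 genes was not tested. Stat3, the factor of interleukin 21 and interleukin 6, was the third that fell (-0.91, adjusted p = 0.0168, edgeR).

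Stat6, the factor of the interleukin 4 receptor, lay at 349 and 342 CPM in WT and 239 and 256 in KO and narrowly missed the threshold (-0.48 on the log2 scale, adjusted p = 0.0559, edgeR). Jak1, the kinase on the partner chains, stood at 363 and 329 CPM in WT and 343 and 352 in KO (0.01, adjusted p = 0.975, edgeR). The values were -0.02 for Jak2, with a sign that turned with scaling by library size alone (0.08), and -0.15 for Tyk2. None of these passed the edgeR test. The calls of Jak3, Stat3 and Stat5b were each lost without WT 1 and without WT 2. Their log2 fold changes stayed between -1.20 and -0.68 whichever library was left out.

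Of 9 feedback inhibitors tested, 2 fell and the others did not pass, with a median log2 fold change of -0.17. Over all genes 8.23% were lower. Socs3, an inhibitor induced by STAT3, gave 471 CPM (WT 1), 506 (WT 2), 197 (KO 1) and 272 (KO 2) and fell by 1.06 on the log2 scale (SE 0.19, adjusted p = 0.0250, edgeR). Ptpn2, a phosphatase that acts on JAK1, JAK3 and STAT5, fell from 140.2 and 152 CPM to 82.9 and 87.7 (-0.77, SE 0.11, adjusted p = 0.0149, edgeR). Cish, a STAT5 target that restrains interleukin 2 signalling, stood at 567 and 547 CPM in WT and 497 and 603 in KO (-0.02, adjusted p = 0.947, edgeR), with a sign that turned with scaling by library size alone (0.08). Socs1 (-0.17), Socs2 (-0.09, and 0.01 with library size alone), Ptpn1 (-0.41), Ptpn6 (0.14), Sh2b3 (0.16) and Cblb (-0.33) did not pass either. The call of Ptpn2 was lost without WT 1 and without WT 2, and that of Socs3 without WT 2. With a library left out, the log2 fold change ran from -1.32 to -0.85 for Socs3 and from -0.83 to -0.72 for Ptpn2.

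Of 19 genes known to respond to these receptors, 1 rose and 4 fell, beside 5.14% higher and 8.23% lower over all genes, with a median log2 fold change of -0.37. Bcl2, the survival gene maintained by interleukin 7, fell from 330.2 and 329 CPM to 183 and 197 (log2 fold change -0.79, SE 0.12, adjusted p = 0.0158, edgeR). Its relative Bcl2l1, which encodes BCL-XL, went the opposite way, from 126 and 124 CPM to 214 and 266 (0.94, SE 0.14, adjusted p = 0.0168, edgeR). The other genes that fell were Ltb, the lymphotoxin beta gene (-0.94, adjusted p = 0.00867), the cytokine gene Osm (-0.68, adjusted p = 0.0348) and the cyclin gene Ccnd3 (-0.61, adjusted p = 0.0439, all edgeR). With limma, Osm was not called on TPM (adjusted p = 0.0922) or FPKM values (adjusted p = 0.0576). Ccnd3 was not called with limma on TPM (adjusted p = 0.0735) or FPKM values (adjusted p = 0.0696), or with edgeR and library size alone (adjusted p = 0.0633). Pim1, a STAT5 target, stood at 0.09 on the log2 scale and did not pass. DESeq2 called 11 genes of this list, beside 2296 of 12680 genes tested. The call of Ltb was the only one kept without WT 1 and the only one kept without WT 2. Its log2 fold change ran from -0.96 to -0.94 with a library left out.

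Of 15 transcription factors known to act on the receptor genes, 4 rose and 2 fell, beside the same 5.14% higher and 8.23% lower over all genes, with a median log2 fold change of 0.13. Ets1, a factor of the ETS family, fell from 1047 and 968 CPM to 536 and 608 (-0.82, adjusted p = 0.0267, edgeR), and Runx3 fell from 473 and 506 CPM to 283 and 237 (-0.91, adjusted p = 0.0195, edgeR). Those that rose were Tbx21 (1.28), Foxp3 (1.16), Rel (0.99) and Nfatc1 (0.62), with adjusted p-values from 0.0215 to 0.0446 (edgeR). Of the 9 regulators not called, Foxo1, Gfi1 and Gabpa were picked after their values were seen. They do not show how regulators of Il7r moved as a group. Foxo1, an activator of Il7r in naive T cells, stood at 356 and 347 CPM in WT and 280 and 276 in KO (-0.34, adjusted p = 0.116, edgeR). Gfi1, a repressor of Il7r, stood at 59.2 and 58.3 CPM in WT and 67.5 and 88.6 in KO (0.41, adjusted p = 0.150, edgeR), and Gabpa, an ETS factor that acts on Il7r, at 68.0, 62.1, 74.9 and 56.2 in WT 1, WT 2, KO 1 and KO 2 (0.01, adjusted p = 0.970, edgeR). Foxp3 kept its call whichever library was left out (log2 fold change 0.87 to 1.40). The other called regulators lost theirs without WT 1, and most did so without WT 2.

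**Figure D5:**
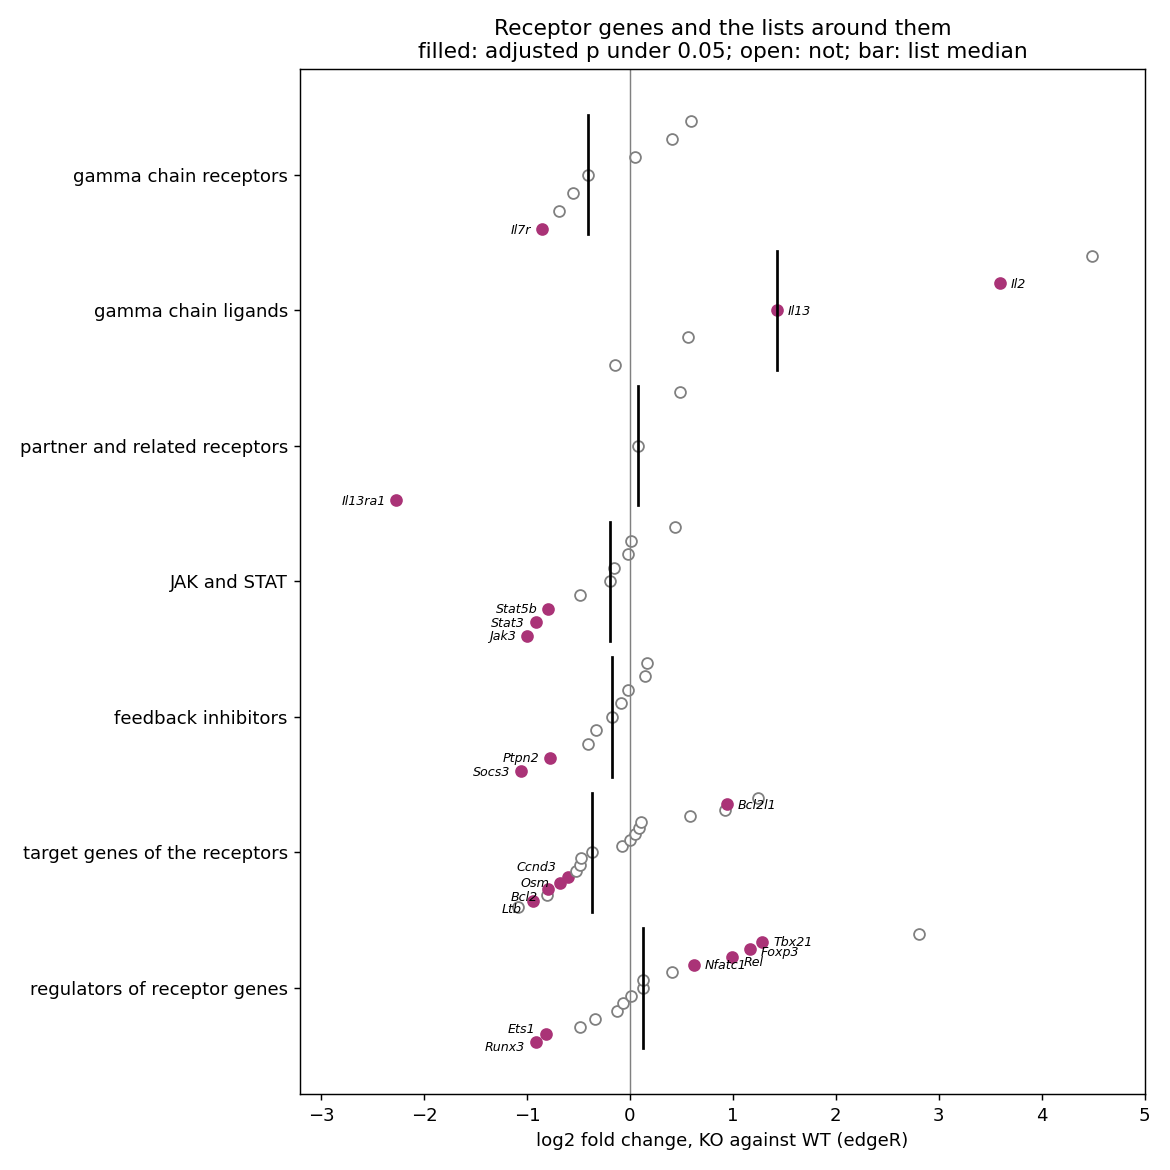
Log2 fold change, KO against WT, of the receptor genes and of 6 lists of genes that act with them; each point is a tested gene, filled and named where the edgeR adjusted p was under 0.05, and the bar is the list median. Il2 (3.59) stands far to the right among the ligands, and the called JAK, STAT and inhibitor genes lie between -1.06 and -0.77.

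The cultures were checked against marker genes, since several of these receptors are also carried by other leukocytes. Over all genes tested, 5.14% were higher and 8.23% lower in KO, the shares to set beside each count of markers. T cell markers summed to 3408 and 3516 CPM in WT 1 and WT 2 and 2953 and 3695 in KO 1 and KO 2, and of 8 tested 1 was higher in KO (Cd5). Th17 markers summed to 3548, 3213, 3366 and 1420 CPM, with KO 2 lowest as it was for Il2ra, and 1 of 8 rose (Ccr6) and 1 fell (Il23r). Myeloid markers summed to 68.9 and 96.4 CPM in WT and 151 and 318 in KO. Of 12 tested, 7 were higher in KO, beside 5.14% of all genes. CD8 and NK cell markers summed to 80.2 and 189 CPM in WT and 412 and 327 in KO with 1 of 7 tested higher (Nkg7). Cd8a stood at 11.8 and 49.1 CPM in WT and 185 and 104 in KO. Cd8b1 stood at 19.1 and 45.3 CPM in WT and 97.6 and 77.1 in KO. Neither passed (adjusted p = 0.0830 and 0.0717, edgeR). Klrd1, Klrk1, Gzma and Prf1 overlapped between genotypes. The NK cell gene Ncr1 was at 0 counts in both WT libraries and at 0.0484 and 0.0497 CPM in KO, below the limit that a count of 0 allows.

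B cell markers, of which 1 of 8 rose beside 5.14% of all genes, summed to 51.1 and 119.9 CPM in WT and 155 and 136 in KO. Mast cell and basophil markers summed to 51.3 and 59.0 in WT and 21.6 and 43.8 in KO, nearly all of it Kit, and 4 of the 5 genes were under 1 CPM on average. Kit did not pass (adjusted p = 0.105, edgeR). Of 7 regulatory T cell markers 2 rose (Foxp3 and Nrp1) and 2 fell (Ctla4 and Tnfrsf9), beside 5.14% higher and 8.23% lower over all genes. The list sum of 5624 and 5954 CPM in WT and 4180 and 2895 in KO consisted largely of Il2ra itself. The part of these cells in the values of the receptor genes was not tested.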

How the data were processed

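The authors deposited 1 table with an expected count, an FPKM value and a TPM value per gene and library. Per the file headers, the expected count is an estimate of the reads of a gene, without normalisation. The authors' FPKM values adjust for length and depth, and their deposited TPM values sum to 1000000 in each library. RSEM 1.2.12, Bowtie2 2.2.5, HISAT2 2.0.4 and GRCm38.p6 appear in the submitters' processing notes, with no role or order. No source used here gives strand, read filters or annotation release, so overlapping genes cannot be told apart. The number of mice and the depth (19418012 to 20125124 counts per library) limit the precision.

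Expected counts were rounded and filtered with filterByExpr of edgeR 4.0.16 (R 4.3.3; minimum count 10, minimum total 15), which removed 5241 genes. KO was compared with WT by the robust quasi-likelihood test with TMM scaling and genotype as the single term, over all 4 libraries, with Benjamini-Hochberg adjustment over all 12680 genes and a threshold of 0.05. Standard errors and 95% intervals come from that fit. Adjusted p-values in the text are from it unless another tool is named. Levels are CPM with TMM scaling. For 23 genes a symbol turned into a date was restored through the gene ID. In simulated counts the fit recovered 63 of 100 genes changed by 1 on the log2 scale and 90 of 100 changed by 2, with 10 false calls. The simulation gave each gene the spread typical of its level, equal in all 4 libraries. The real KO libraries differed from each other more than the WT libraries, so these figures need not hold for them. Changes smaller than 1, the size found for every member, were not simulated.

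Alternatives were other scalings and filters, DESeq2 1.42.0, limma 3.58.1 on log2(TPM + 1) and log2(FPKM + 0.1), leaving out each library, and a replicate block. The rule for named genes takes all members, ligands, related receptors, JAK, STAT and inhibitor genes, and the target and regulator genes past the threshold. For 1 listed gene the values are not reported here. Further target and regulator genes were chosen after their values were seen. The members and lists were chosen with earlier results of these data known.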

Additional observations from a re-analysis of the deposited data

How the results depend on the processing

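With 2 libraries per genotype, residual degrees of freedom were 2, and the calls depended on which library was kept. Where 1 library is left out, the lone library of its genotype is assumed to vary like the others. Over all genes too, fewer were called without a WT library, and more without a KO library, than with all libraries. A shift in these directions was thus not particular to the receptor genes. The lowest and highest values given below for different results need not come from the same library left out. Without WT 1 or WT 2, edgeR called 0 of the 7 receptor genes (1 and 2 at an unadjusted p under 0.05), and without a KO library up to 6 were. The lowest and highest values with a library left out were 693 and 5999 for all genes called (209 and 2881 higher, 450 and 3118 lower), 0 and 6 for receptor genes, 0 and 3 for ligands, 0 and 2 for related receptors, 0 and 5 for JAK and STAT genes, 0 and 4 for inhibitors, 1 and 13 for target genes and 1 and 12 for regulators. For log2 fold changes they were -0.88 and -0.0574 for Il2ra, -0.65 and -0.46 for Il2rb, 0.35 and 0.46 for Il2rg, -0.98 and -0.74 for Il7r, -0.87 and -0.53 for Il4ra, -0.18 and 0.24 for Il21r and 0.17 and 0.92 for Il15ra. Signs also turned among genes that were not called: -0.27 and 1.09 for Il4, -0.34 and 0.0242 for Il21, -0.28 and 0.37 for Crlf2, -0.0676 and 0.0757 for Jak1, -0.20 and 0.14 for Jak2, -0.17 and 0.11 for Cish, -0.37 and 0.14 for Socs2 and -0.83 and 0.0358 for Cblb.

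The 9 alternatives of scaling, filter, tool and unit kept the call and direction of Il7r (log2 fold change -0.86 to -0.75). DESeq2 called 2296 of 12680 genes, 988 higher and 1308 lower in KO. Among them were 4 receptor genes (Il7r, Il2rb at -0.55, Il2rg at 0.41 and Il4ra at -0.69) and 11 target genes. With no filter on low counts 1763 of 16885 genes were called, among them 2 receptor genes, with Il4ra at -0.69. The sign turned for Jak1 with no filter (-0.0003), for Jak2 with library size alone (0.0801), TPM (0.0799) and FPKM (0.0781), for Cish with the same 3 (0.0793, 0.0736 and 0.0715) and for Socs2 with library size alone (0.0102). The cause of these shifts was not tested.

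The mouse numbers are shared between genotypes but name different animals, and the correlation across genes of the deviations of same-numbered libraries was 0.17. With a replicate block on the mouse number, 2935 of 12680 genes were called (1338 higher, 1597 lower). Among them were 3 receptor genes (Il7r, Il2rb at -0.55 and Il4ra at -0.69), 1 ligand (Il13) and 11 target genes. Il2 was not called there (3.45, 95% interval -2.17 to 9.06, adjusted p = 0.227, edgeR).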

Other observations

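Summed over the 7 genes, Il2rg held 18.03% (WT 1), 19.5% (WT 2), 26.4% (KO 1) and 32.8% (KO 2) of the TPM. The 6 partner chains together stood at 4.55 and 4.13 times the level of Il2rg in WT 1 and WT 2 and at 2.79 and 2.05 times in KO 1 and KO 2. These sums were chosen after the values of the single genes had been seen and are a description of 4 libraries.

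The genes whose pattern over the 4 libraries was most like that of Il7r were Acap1, which encodes an ARF GTPase-activating protein, and Atg9a, a gene of autophagy. Likeness was the Euclidean distance between log2 CPM values centred over the libraries, among 9820 named genes that averaged 5 CPM or more. The distance was 0.0281 for Acap1 and 0.0343 for Atg9a. Acap1 stood at 483 and 510 CPM in WT and 247 and 292 in KO, and Atg9a at 84.9 and 91.5 in WT and 45.6 and 52.8 in KO. With 4 libraries such likeness is a description only.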
